A study of Hordeum vulgare with 12 samples.

Results

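The heat response genes described here are the 117 barley genes whose deposited ontology terms hold "response to heat" and not abscisic acid signalling, and which reached 1 FPKM in 3 or more of the 12 leaf libraries. FPKM, fragments per kilobase of transcript and per a fixed number of mapped fragments, is a level per length. They are 117 of 17342 genes that reached this level, in a table of 30157 genes. The heat term stood on 186 genes, of which 182 did not carry abscisic acid signalling. Of those 182, 64 stayed under the FPKM limit and 1 was left out by name. The third highest FPKM was 1.03, 1.14 and 1.15 in the members just inside the limit and 0.955, 0.934 and 0.799 in the genes just outside it.

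The libraries came from leaves of 2 barley (Hordeum vulgare) accessions in 4 groups of 3: BCS24 under drought, BCS24 control, BCS8 under drought and BCS8 control, where the label "ck" was read as control. By its title the study sought genes that respond to drought in seedlings. The sources used here do not give plant age, the length or severity of the drought, or whether replicates were separate plants. The p-values therefore measure the spread between these libraries, which may be technical.

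Heat unfolds proteins, and plant cells answer with heat shock proteins that hold, refold or clear the damaged ones. Small heat shock proteins of the HSP20 family bind unfolding proteins without ATP and keep them from clumping. HSP70 proteins refold them with ATP, driven by J-domain co-chaperones and recharged by nucleotide exchange factors, while chaperonins fold proteins inside a closed ring.

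Total counts ran from 49553836 to 61212440 per library. The 8 genes described as Rubisco small subunits summed to 7547 to 16371 FPKM in each library and the 31 chlorophyll a-b binding genes to 34323 to 56475 FPKM in BCS24 drought, 29812 to 39120 FPKM in BCS24 control, 21589 to 34140 FPKM in BCS8 drought and 17968 to 25538 FPKM in BCS8 control. The chlorophyll binding sum was thus higher in BCS24 without overlap in both conditions, and its part in the accession differences was not tested. Counts assigned to rRNA genes made up 0.486 ± 0.248% in BCS24 drought, 1.35 ± 0.775% in BCS24 control, 1.65 ± 0.666% in BCS8 drought and 0.771 ± 0.239% in BCS8 control (mean ± SD, n = 3 each). This share moved with drought in opposite directions in the accessions, and the results of fits with it as a covariate stand beside the calls they end. Its part in the results was not tested otherwise. In bulk leaf RNA, fewer cells of a type and less RNA per cell cannot be told apart.

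By orthology number, or by ontology terms where none decided, the members held 9 small heat shock protein genes, 17 HSP70 genes, 6 J-domain co-chaperones and 1 HSP90, the endoplasmin HORVU5Hr1G070720. A further 15 were chaperonins and other folding genes, 7 were placed as transcription factors, 3 as kinases, 12 under oxidation and reduction, 9 under chloroplast, 3 under proteolysis, 1 under RNA and 34 under none of these. The HSP70 genes were 11 of the cytosolic type, 5 of the type found in organelles and HORVU6Hr1G008880, by orthology BiP, the HSP70 of the endoplasmic reticulum. The roles given to these genes are known mainly from Arabidopsis and other model species.

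Other stress terms stood on many members. Salt stress was annotated to 33.3% of members and 1.79% of all tested genes, cadmium to 32.5% and 1.33%, cold to 23.1% and 1.32%, and water deprivation to 22.2% and 1.15%. Protein folding was annotated to 29.1% of members and 1.07% of all tested genes, and the cytosol to 45.3% and 9.58%. These shares describe the annotation and were not tested.

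Mean levels over the 12 libraries ran from 0.754 to 907 FPKM among the members. The cytosolic HSP70 gene HORVU5Hr1G113180 stood highest, at 947, 1159.7 and 869 FPKM in BCS24 drought, 1051, 964 and 1094 FPKM in BCS24 control, 749, 926.7 and 627 FPKM in BCS8 drought and 789.9, 749.5 and 958 FPKM in BCS8 control. Its drought and control libraries overlapped in both accessions. Next by mean came the glyceraldehyde 3-phosphate dehydrogenases HORVU7Hr1G074690 (332 FPKM) and HORVU6Hr1G054520 (179.7 FPKM), enzymes of glycolysis, and the xyloglucan endotransglucosylase HORVU7Hr1G098370 (175 FPKM), a cell wall enzyme. HORVU5Hr1G032650, another cytosolic HSP70, followed at 164 FPKM and HORVU2Hr1G046370, described as a 15.4 kDa class V heat shock protein, at 108 FPKM. Small heat shock proteins were mostly low, with a median of 2.77 FPKM, beside 14.9 FPKM for HSP70 and 45.5 FPKM for J-domain genes. A further 19 small heat shock protein genes lay under the limit and never passed 1.07 FPKM in any library, as did 7 HSP70 genes, which never passed 0.897 FPKM. All members together took 1.02 to 1.29% of the counts of each library.

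**Figure D1:**
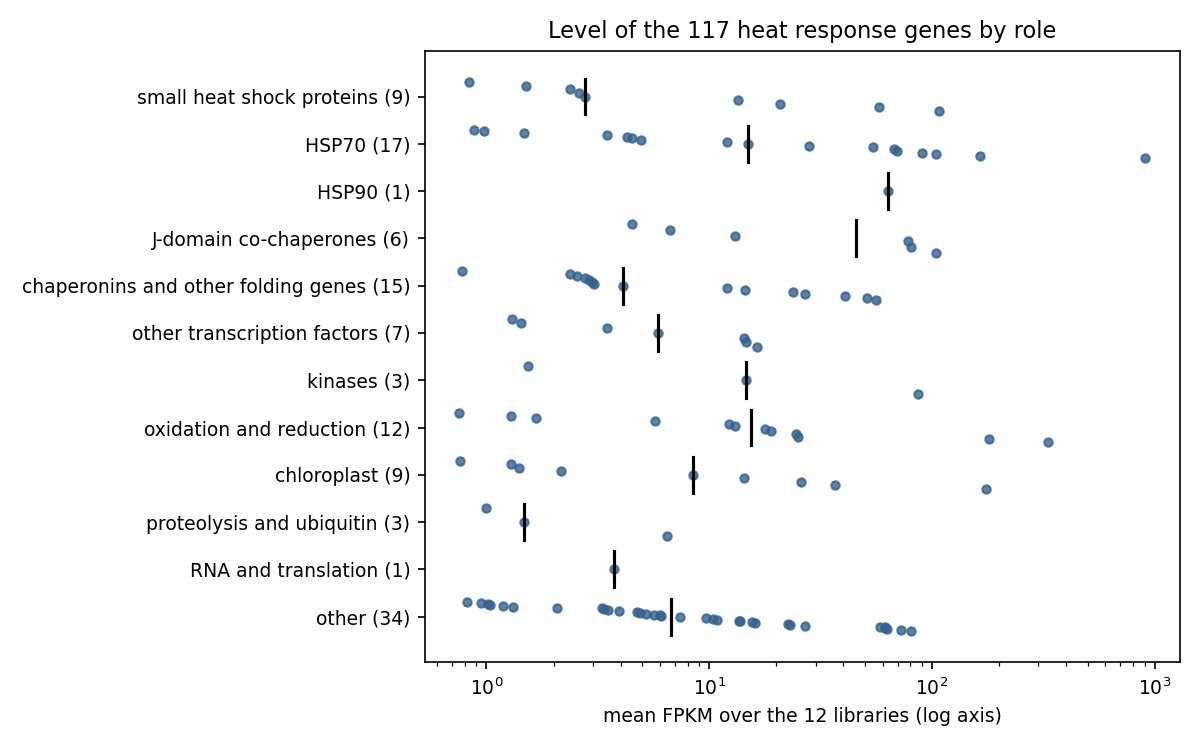
Mean FPKM over the 12 libraries (log axis) of each of the 117 members by role, 1 point per gene, with the number of genes in brackets and a bar at the median. Small heat shock proteins spread widely around a median of 2.77 FPKM, and the rightmost point is the HSP70 gene HORVU5Hr1G113180 at 907 FPKM.

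Drought was first compared with control within each accession, in one edgeR quasi-likelihood fit over all tested genes with an adjusted p under 0.05 as the threshold. In BCS24 an annexin gene rose, and in BCS8 a small heat shock protein gene and an HSP70 gene rose and a mannose-1-phosphate guanylyltransferase gene fell. The 1 member in BCS24 was 0.855% of members, against 2.65% of all tested genes (1.4% higher and 1.25% lower). The 3 members in BCS8 were 2.56%, against 1.53% of all tested genes (0.998% higher and 0.536% lower). At an unadjusted p under 0.05 there were 24 members in BCS24 and 31 in BCS8, where 20.6% and 16.3% of all tested genes passed. DESeq2 called 7 members in BCS24 and 17 in BCS8, beside 10.4% and 6.82% of all tested genes. A fit of only the 6 libraries compared called 1 member in BCS24 and 0 in BCS8.

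Averaged over both accessions, the drought effect passed in 6 members, 5 higher and 1 lower, or 5.13% of members, beside 6.87% of all tested genes (4.0% higher and 2.87% lower). The 5 that rose were 2 small heat shock proteins, 2 cytosolic HSP70 genes and the annexin. At an unadjusted p under 0.05 there were 32 of the 117 members, beside 23.0% of all tested genes, and DESeq2 called 20 of the 117, beside 13.5%. The median log2 fold change of the 117 members was 0.03 in BCS24 and 0.08 in BCS8, beside -0.00 and 0.02 over all tested genes. With limma on log2(FPKM + 1) the member medians were -0.08 and -0.00, beside -0.10 and -0.03 for all genes, so the sign of the member medians depended on the scaling while they lay above those of all genes in both fits. By the mean effect 75 of the 117 members were above 0, beside 8877 of all 17342 tested genes. With limma on log2(FPKM + 1) it was 58 of the 117, with a mean-effect median of -0.004 in members and -0.065 in all genes. The count of members above 0 thus also depended on the scaling. Drought effects had the same sign in both accessions in 54.7% of members and 58.8% of all tested genes. Drought and control libraries did not overlap in FPKM for 31 of the 117 members in BCS24 and 29 of the 117 in BCS8. Over all 17342 tested genes, 5354 (30.9%) and 3430 (19.8%) had no overlap.

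The largest drought rise to pass was that of HORVU3Hr1G020390 (chromosome 3H, 63344074 to 63345273, plus strand, coordinates as in the deposited table), a single-exon gene of the HSP20 family. It had 1.04, 1.70 and 0.805 FPKM in BCS24 drought, against 0.273, 0.579 and 0.705 FPKM in BCS24 control, and 7.92, 8.41 and 3.76 FPKM in BCS8 drought, against 0.962, 0.866 and 1.39 FPKM in BCS8 control. All 3 drought libraries were above all 3 controls in each accession, and BCS8 drought was above every other group. The log2 fold change was 1.30 in BCS24, which did not pass, 2.66 ± 0.44 in BCS8 (± SE, edgeR adjusted p = 0.0262) and 1.98 ± 0.31 for the mean (edgeR adjusted p = 0.00684). The BCS8 call failed in 7 of 23 alternatives, among them the removal of any control library of BCS8 or BCS8 drought 1 (edgeR adjusted p = 0.0602 to 0.139) and the rRNA covariate (0.117). The mean effect passed in all 21 alternatives run for it.

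HORVU4Hr1G059260 (4H, 495853403 to 495855935, plus strand), a cytosolic HSP70 gene of low level, had 1.29, 0.557 and 0.621 FPKM in BCS24 drought, against 0.428, 0.428 and 0.549 FPKM in BCS24 control. In BCS8 it had 2.18, 1.41 and 2.69 FPKM under drought, against 0.410, 0.575 and 0.572 FPKM in control. Drought libraries were again above controls in both accessions without overlap. The gene reached 1 FPKM in 4 libraries, all of them drought, so it was a member only through the groups where it is high and its direction was partly set by that limit. Its log2 fold change was 0.93 in BCS24, not past the threshold, 2.05 ± 0.37 in BCS8 (edgeR adjusted p = 0.0292) and 1.49 ± 0.26 for the mean (edgeR adjusted p = 0.00997). Its BCS8 call failed in 9 of 23 alternatives. Among them were the removal of any control library of BCS8, BCS8 drought 1 or BCS24 control 3 (edgeR adjusted p = 0.0537 to 0.151), the rRNA covariate (0.0545) and a fit of only the libraries compared. The mean effect passed in each of its 21 alternatives.

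A second cytosolic HSP70 gene on the same chromosome and strand is HORVU4Hr1G059390 (4H, 496746552 to 496749295). It was far more abundant, at 39.9, 70.1 and 23.0 FPKM in BCS24 drought, against 20.4, 34.0 and 33.5 FPKM in BCS24 control, and 158, 199.7 and 109.9 FPKM in BCS8 drought, against 34.4, 57.2 and 59.2 FPKM in BCS8 control. The groups overlapped in BCS24 and did not in BCS8. It passed for the mean effect, 1.19 ± 0.28 (edgeR adjusted p = 0.0299), and in neither accession alone, with 0.72 in BCS24 and 1.67 in BCS8. Without BCS24 drought 1, any BCS24 control library, BCS8 drought 1 or 2, or BCS8 control 1 it did not pass (edgeR adjusted p = 0.0522 to 0.0794).

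HORVU3Hr1G006930 (3H, 16623930 to 16739791, plus strand) is the other small heat shock protein gene that rose by the mean effect. It had 21.2, 19.8 and 28.7 FPKM in BCS24 drought, against 12.8, 15.2 and 20.4 FPKM in BCS24 control, and 22.5, 33.8 and 25.0 FPKM in BCS8 drought, against 16.4, 16.4 and 17.2 FPKM in BCS8 control. In BCS24 1 control lay above 1 drought library, and in BCS8 the groups did not overlap. The mean effect was 0.70 ± 0.15 (edgeR adjusted p = 0.0232), lost without BCS24 control 2 or BCS8 control 1 (0.0655 and 0.0664). The gene overlaps the small heat shock protein gene HORVU3Hr1G006940 on the opposite strand over 8590 bases. The libraries keep strand per the labels, but the sources used here do not say whether counting used it, so the values of such pairs are uncertain.

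The annexin gene HORVU7Hr1G037080 (7H, 87943191 to 87946757) was the member called in BCS24, and annexins bind membrane lipids in the presence of calcium. It had 17.5, 15.8 and 10.7 FPKM in BCS24 drought, against 7.08, 4.70 and 5.82 FPKM in BCS24 control, and 19.8, 20.1 and 20.9 FPKM in BCS8 drought, against 5.30, 13.4 and 6.53 FPKM in BCS8 control. Drought was above control without overlap in both accessions. The log2 fold change was 1.44 ± 0.31 in BCS24 (edgeR adjusted p = 0.0437), 1.32 in BCS8, which did not pass, and 1.38 ± 0.22 for the mean (edgeR adjusted p = 0.00736, past the threshold in all 22 alternatives run). The BCS24 call failed in 10 of 24 alternatives. Among them were the removal of BCS24 drought 1 or 2, any BCS24 control library, BCS8 drought 1 or BCS8 control 3 (edgeR adjusted p = 0.0551 to 0.181) and the rRNA covariate (0.222). The other 5 members described as annexins passed for drought in neither accession.

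The gene that fell was HORVU3Hr1G085830 (3H, 614514373 to 614516518, minus strand), a mannose-1-phosphate guanylyltransferase by orthology, which makes the GDP-mannose used for ascorbate and cell wall sugars. In BCS24 the groups overlapped, with 7.13, 11.5 and 5.77 FPKM under drought, against 10.6, 8.05 and 9.22 FPKM in control. It had 6.84, 6.06 and 7.80 FPKM in BCS8 drought, against 15.6, 14.4 and 22.0 FPKM in BCS8 control, without overlap. Its log2 fold change was -0.07 in BCS24, -1.29 ± 0.26 in BCS8 (edgeR adjusted p = 0.0433) and -0.68 ± 0.18 for the mean (edgeR adjusted p = 0.0496). These calls lay close to the threshold. The BCS8 call failed in 15 of 24 alternatives, among them the removal of any BCS8 library, any BCS24 control library or BCS24 drought 1 (edgeR adjusted p = 0.051 to 0.139), and the mean failed in 13 of 22. With the rRNA covariate the BCS8 value was -1.05 (edgeR adjusted p = 0.18). Its neighbour HORVU3Hr1G085820 has the same orthology number but is described as a CASP-like protein, so its identity is uncertain. HORVU3Hr1G085820 had 3.39, 3.00 and 2.11 FPKM in BCS8 drought, against 4.64, 5.22 and 10.1 FPKM in BCS8 control, a log2 fold change of -1.20 that did not pass.

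**Figure D2:**
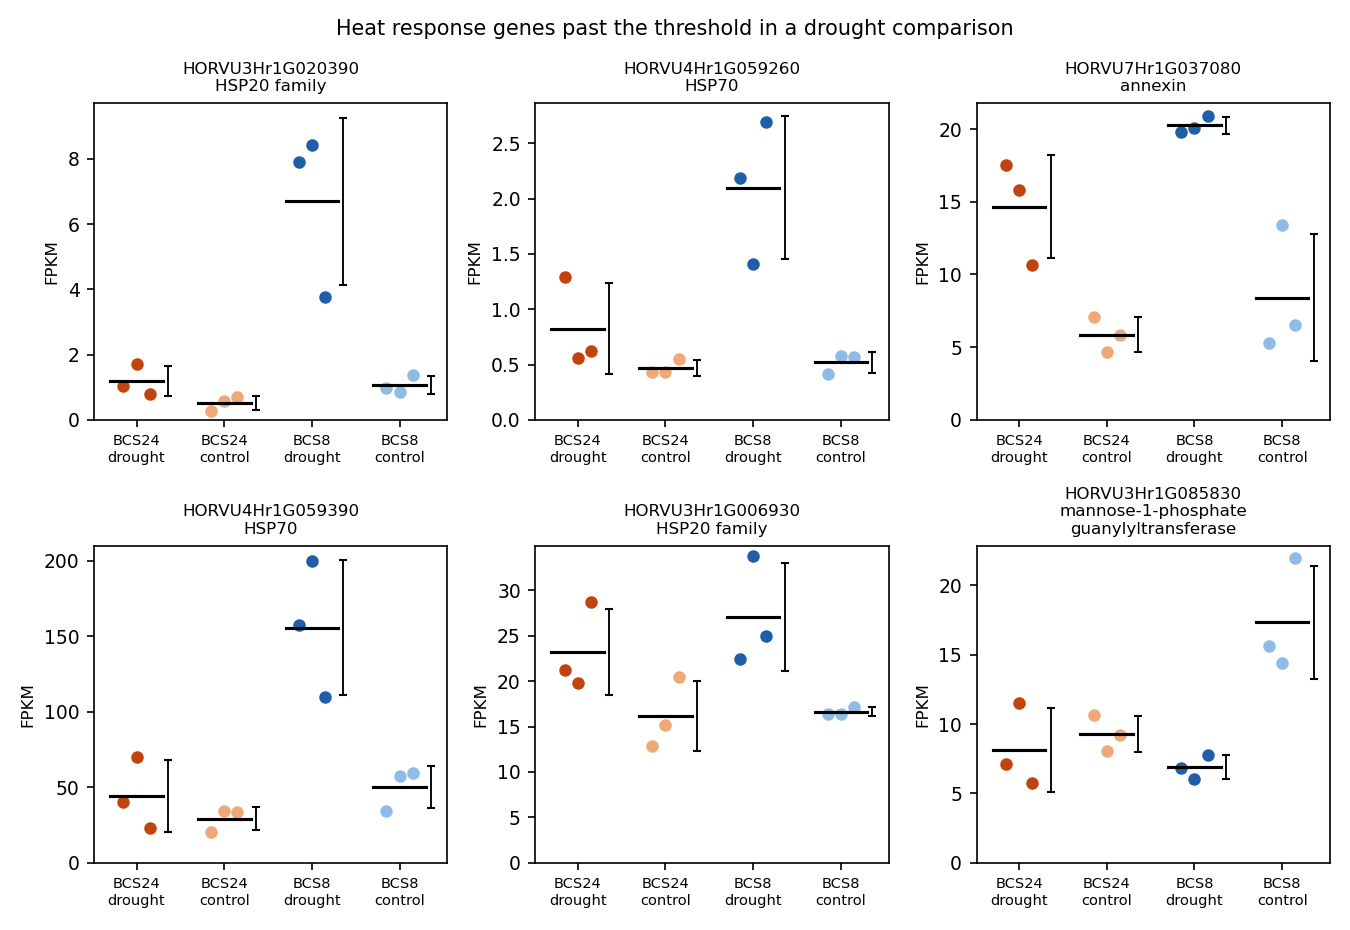
FPKM in each library (points, linear axes starting at 0) of the 6 members past the threshold in a drought comparison, in BCS24 drought, BCS24 control, BCS8 drought and BCS8 control, with a line at the mean and the SD beside it (n = 3). In HORVU3Hr1G020390 and both HSP70 genes the 3 BCS8 drought libraries stand above all others, and HORVU3Hr1G085830 is highest in BCS8 control.

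Between the accessions' drought effects no member differed past the threshold in edgeR, and neither did any of the 17342 tested genes, a share of 0.0%. At an unadjusted p under 0.05 there were 23 members, beside 12.5% of all tested genes, and DESeq2 called 5, beside 3.63%. The lowest adjusted p among members was 0.208, for the basic endochitinase HORVU7Hr1G051580, an enzyme of defence. HORVU3Hr1G020390 passed in BCS8 alone, but its difference, BCS24 minus BCS8, was -1.37 with an edgeR adjusted p of 0.391, so the accessions are not shown to differ in it.

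Small heat shock proteins had a median drought log2 fold change of 0.51 in BCS24 and 0.89 in BCS8, with 7 of 9 above 0 in each, where all tested genes had medians of -0.00 and 0.02. By edgeR 0 of the 9 rose in BCS24, 1 in BCS8 and 2 by the mean effect. The FPKM limit favoured low genes that are high under drought, since HORVU4Hr1G072680 reached it only in drought libraries, HORVU4Hr1G002290 in 4 drought libraries and 1 control, and HORVU3Hr1G020390 in 5 drought libraries and 1 control. The median and counts are therefore a description and not a sign of a group response. Several low genes of the group, chosen after their values were seen, had large values that did not pass. HORVU4Hr1G072770 had 1.86, 0.492 and 6.52 FPKM in BCS24 drought, against 1.69, 1.30 and 2.06 FPKM in BCS24 control, and 2.14, 4.97 and 7.80 FPKM in BCS8 drought, against 0.470, 0.984 and 0.894 FPKM in BCS8 control. HORVU4Hr1G072680 had 0.428, 0.0261 and 2.42 FPKM in BCS24 drought, against 0.893, 0.243 and 0.357 FPKM in BCS24 control, and 0.941, 1.15 and 2.63 FPKM in BCS8 drought, against 0.482, 0.172 and 0.235 FPKM in BCS8 control. HORVU4Hr1G002290 had 0.556, 0.0884 and 2.00 FPKM in BCS24 drought, against 0.736, 0.482 and 0.832 FPKM in BCS24 control, and 1.59, 2.52 and 6.86 FPKM in BCS8 drought, against 0.599, 1.01 and 0.702 FPKM in BCS8 control. In each of these genes drought and control overlapped in BCS24 and not in BCS8, and drought library 3 was the highest of all in both accessions. Their log2 fold changes in BCS8 were 2.67 for HORVU4Hr1G072770, 2.47 for HORVU4Hr1G072680 and 2.28 for HORVU4Hr1G002290.

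The most abundant small heat shock protein genes did not share that pattern. HORVU2Hr1G046370 had 56.0, 85.5 and 75.5 FPKM in BCS24 drought, against 137, 106 and 100.3 FPKM in BCS24 control, and 68.1, 62.7 and 179 FPKM in BCS8 drought, against 120.1, 202 and 99.2 FPKM in BCS8 control. Its drought libraries all lay under the controls in BCS24 and overlapped them in BCS8, and neither comparison passed (-0.53 in BCS24 and -0.39 in BCS8). HORVU6Hr1G015130 had drought log2 fold changes of -0.16 and -0.02, also not past the threshold. The SD within groups on the log2 scale had a median of 0.53 over the 9 small heat shock proteins, beside 0.27 over all members and 0.24 over all tested genes.

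**Figure D3:**
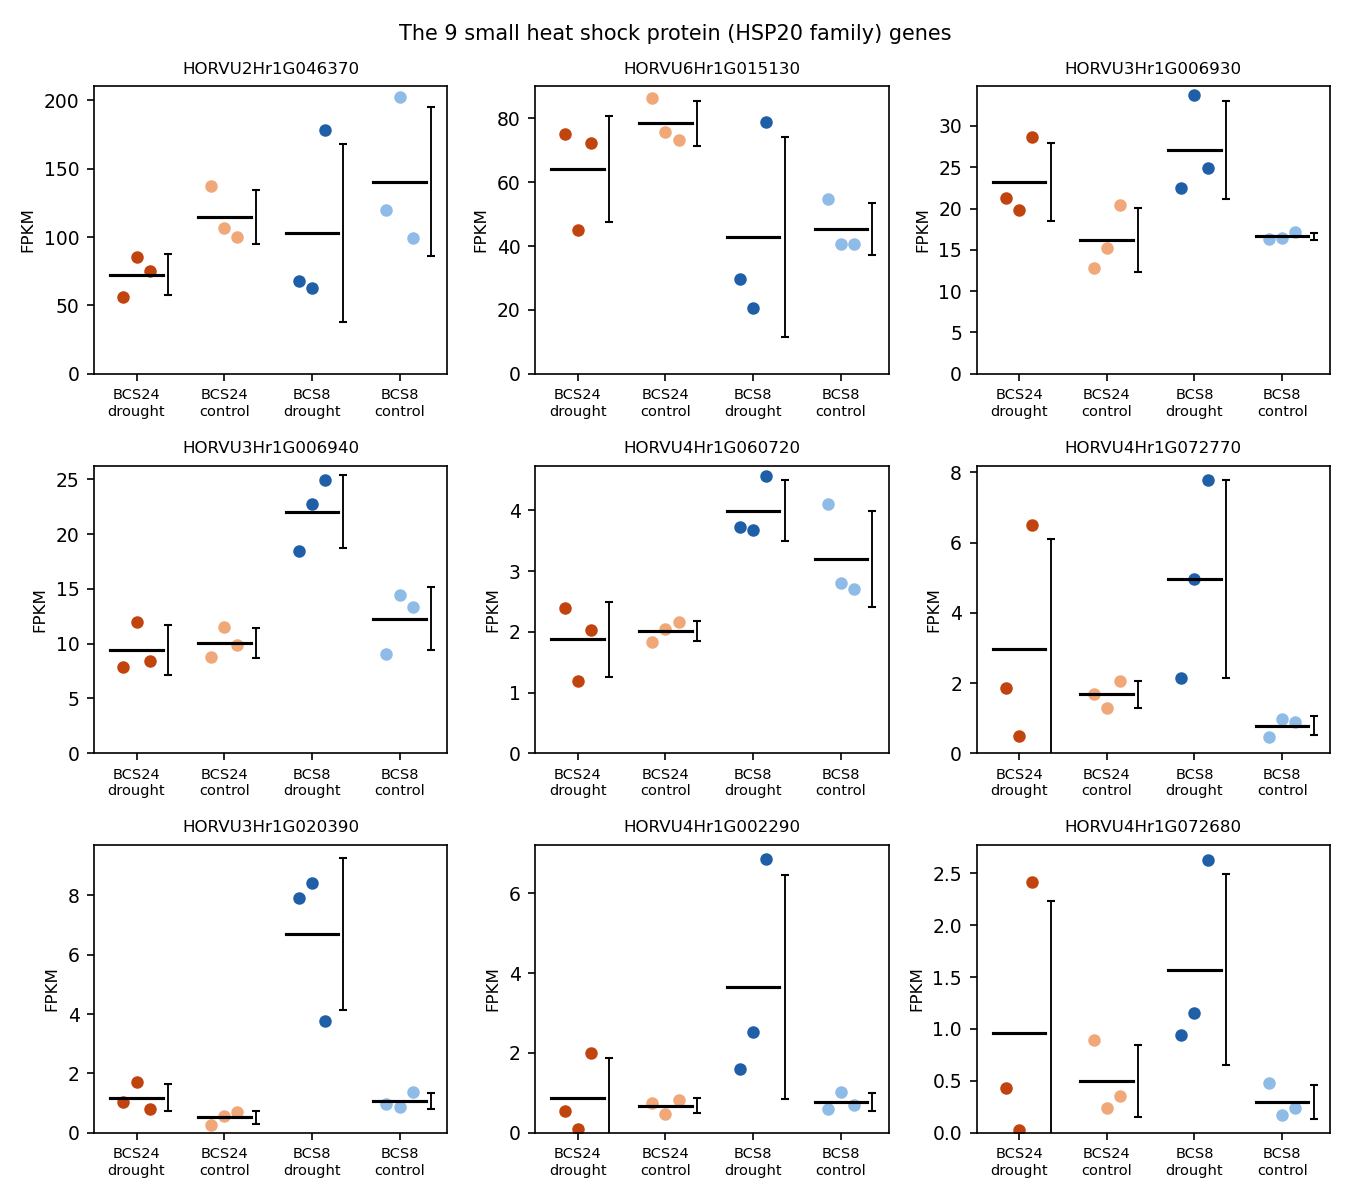
FPKM in each library (points, linear axes starting at 0) of the 9 small heat shock protein genes in BCS24 drought, BCS24 control, BCS8 drought and BCS8 control, ordered by level, with a line at the mean and the SD beside it (n = 3, cut at 0). In the 5 genes of lowest level BCS8 drought has the highest mean, while the most abundant gene is highest by mean in BCS8 control.

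Among HSP70 genes the 11 cytosolic ones had a median drought log2 fold change of 0.06 in BCS24 and 0.53 in BCS8, with 0 past the threshold in BCS24 and 1 in BCS8. Of these, HORVU4Hr1G059260, the one called, and HORVU1Hr1G072210 reached the FPKM limit in drought libraries alone. The cytosolic medians and counts are therefore a description and not a sign of a group response. The 5 of organelles had medians of 0.20 in BCS24 and -0.01 in BCS8, with 0 past it in either. BiP (HORVU6Hr1G008880), which folds proteins in the endoplasmic reticulum and was chosen after its values were seen, had 58.4, 114 and 33.1 FPKM in BCS24 drought, against 37.0, 54.0 and 59.2 FPKM in BCS24 control, and 109.6, 233 and 70.1 FPKM in BCS8 drought, against 77.0, 125 and 109.7 FPKM in BCS8 control. Its groups overlapped in both accessions, and drought passed in neither (0.57 in BCS24 and 0.43 in BCS8). It overlaps another annotated gene on the same strand over 3980 bases, so its count may hold reads of that gene. Its deposited gene type is a nontranslating coding sequence and not a protein-coding gene.

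The HSP70 gene HORVU1Hr1G072210 (1H, 496657261 to 496660675, minus strand) was not detected in a whole group. It had 0, 0 and 1.35 FPKM in BCS24 drought, against 0, 0 and 0.924 FPKM in BCS24 control, and 0.438, 4.82 and 2.97 FPKM in BCS8 drought, against 0 in all 3 BCS8 control libraries. In counts, BCS8 drought held 1695 and BCS8 control 0. With 3 counts per library as the limit this is at least 194-fold higher under drought, yet edgeR did not call it. It reached 1 FPKM in 3 libraries, all of them drought, so its direction was partly set by the FPKM limit. The gene overlaps the HSP70 gene HORVU1Hr1G072220 on the opposite strand over 3301 bases, which had 8.63, 5.42 and 2.71 FPKM in BCS8 drought, against 2.04, 3.46 and 2.28 FPKM in BCS8 control, with overlap.

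Of the partners of HSP70 and the other folding genes none passed for drought in either accession, where only 2.65% of all tested genes in BCS24 and 1.53% in BCS8 did, so these counts are near the background. J-domain co-chaperones, which bring HSP70 its substrates, had 0 of 6 past the threshold, with medians of -0.10 in BCS24 and 0.03 in BCS8. The 3 genes with the orthology number of Fes1-type nucleotide exchange factors, which release ADP from HSP70, also gave none. HORVU4Hr1G060140 among them is described as a pentatricopeptide repeat-containing protein. It overlaps HORVU4Hr1G060150, described as Fes1B, on the opposite strand over 9640 bases. The BAG family gene HORVU3Hr1G087700, another HSP70 partner, did not pass either. The 15 chaperonins and other folding genes gave 0 as well, with medians of -0.02 in BCS24 (-0.0045 with a gene at 0 counts set to its bound) and -0.00 in BCS8. Endoplasmin had 77.0, 68.8 and 55.4 FPKM in BCS24 drought, against 59.4, 67.3 and 59.0 FPKM in BCS24 control, and 67.6, 59.7 and 52.6 FPKM in BCS8 drought, against 78.7, 54.0 and 59.9 FPKM in BCS8 control, overlapping in both.

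Single members of other roles follow. The WRKY33-type gene HORVU3Hr1G088200, a transcription factor of defence, had 6.15, 4.37 and 13.6 FPKM in BCS24 drought, against 9.63, 19.2 and 21.0 FPKM in BCS24 control, and 18.1, 22.0 and 13.5 FPKM in BCS8 drought, against 16.6, 6.35 and 24.8 FPKM in BCS8 control. Its groups overlapped in both accessions, and neither comparison passed (-0.90 in BCS24 and 0.20 in BCS8). The respiratory burst oxidase HORVU4Hr1G081670, which makes superoxide at the cell surface, had 14.7, 15.5 and 16.9 FPKM in BCS24 drought, against 18.0, 22.9 and 21.5 FPKM in BCS24 control, all drought libraries under all controls, and overlapped in BCS8 (-0.28 in BCS24 and 0.35 in BCS8, neither past the threshold). Galactinol synthase HORVU4Hr1G052450, which begins the synthesis of raffinose sugars, had 1.83, 2.35 and 1.98 FPKM in BCS24 drought, against 1.59, 0.948 and 0.825 FPKM in BCS24 control, and 3.53, 1.99 and 4.74 FPKM in BCS8 drought, against 1.42, 2.95 and 0.801 FPKM in BCS8 control. BCS24 libraries did not overlap and BCS8 libraries did, and its mean effect of 1.01 did not pass (edgeR adjusted p = 0.0956). HORVU2Hr1G106880, described as CHL and placed under chloroplast, was nearest to the threshold of the members in that role, with a mean effect of 0.58 (edgeR adjusted p = 0.0504). These genes other than the WRKY33-type and CHL ones were chosen after their values were seen.

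Some members had large drought values with libraries of a group far apart, and were chosen after their values were seen. HORVU4Hr1G051730, placed with the folding genes by its terms, had 0.220, 0.421 and 0.378 FPKM in BCS24 drought, against 0.333, 7.11 and 5.27 FPKM in BCS24 control, and 0.732, 0 and 0 FPKM in BCS8 drought, against 6.44, 1.20 and 6.29 FPKM in BCS8 control. The groups overlapped in BCS24 and did not in BCS8, and its mean effect of -3.83 did not pass (edgeR adjusted p = 0.0558). The libraries in which it reached the FPKM limit were all controls. HORVU2Hr1G004540, an ent-kaurene synthase by orthology, of the gibberellin pathway, had 0, 0 and 0.378 FPKM in BCS24 drought, against 0.127, 0.375 and 1.69 FPKM in BCS24 control, and 6.60, 10.9 and 0.293 FPKM in BCS8 drought, against 1.64, 0.747 and 3.11 FPKM in BCS8 control. Its groups overlapped in each accession, and neither drought effect passed (-2.33 in BCS24 and 1.71 in BCS8).

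**Figure D4:**
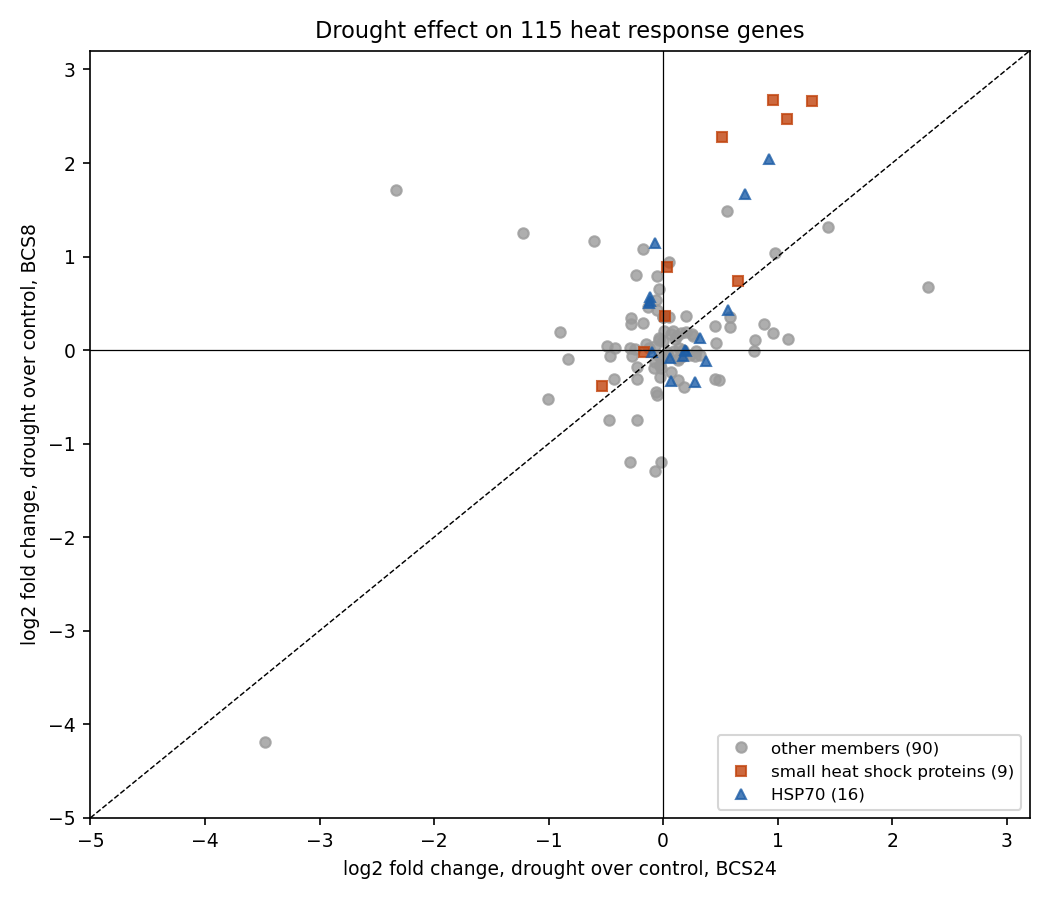
Log2 fold change of drought over control in BCS24 (x axis) and in BCS8 (y axis) for 115 members, 1 point per gene, with equal values on the dashed line; the 2 members with 0 counts in a group are left out. Of the 9 small heat shock proteins (squares) 7 are above 0 in each accession and all 9 lie above the dashed line, with none of these differences past the threshold. HORVU4Hr1G002290 and HORVU4Hr1G072680 reached the FPKM limit mainly in BCS8 drought libraries. The positions are therefore a description and not a sign of a group response.

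Genes of related lists that are no members are given beside the 4.0% of all tested genes that rose and the 2.87% that fell by the mean effect. Of 152 further genes with the protein folding term, 1 rose and 1 fell in BCS24, 0 changed in BCS8, and 6 rose and 2 fell by the mean effect. Among 57 further genes of unfolded protein binding 1 rose and 1 fell in BCS24, 1 rose in BCS8, and 4 rose and 2 fell by the mean. Of 28 further genes of the high light response 5 rose and 0 fell by the mean effect, and of 173 further genes of the water deprivation response 27 rose and 8 fell. Of 3 genes that carry heat and abscisic acid signalling together, left out of the members, 2 rose by the mean effect.

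BCS24 was then compared with BCS8, under drought and in control. Many more members passed here than for drought. Under drought 31 passed, 12 higher and 19 lower in BCS24, or 26.5% of members, beside 27.4% of all tested genes (13.3% higher and 14.1% lower). In control 19 passed, 7 higher and 12 lower in BCS24, or 16.2%, beside 19.1% of all tested genes (9.98% higher and 9.15% lower). Both shares lie near the background, so the counts are not a result about heat response genes, and what follows describes which members they were. At an unadjusted p under 0.05 there were 44 members under drought and 40 in control, beside 41.4% and 35.2% of all tested genes, and DESeq2 called 39 and 29, beside 35.1% and 27.2%. With the rRNA covariate 11 members passed under drought and 13 in control. Same-numbered libraries of the accessions correlated at 0.139 to 0.246 in their deviations under drought, which does not show that they were paired. A fit of those 6 libraries with the replicate number as a block called 19, against 12 without it. Both comparisons called 11 members, 35.5% of those under drought and 57.9% of those in control. Libraries of the accessions did not overlap in FPKM for 40 members under drought and 53 in control, where 38.3% and 46.1% of all tested genes had no overlap.

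Of the 48 chaperone genes 4 were higher and 10 lower in BCS24 under drought, and 3 higher and 2 lower in control. The 69 other members gave 8 higher and 9 lower under drought, and 4 higher and 10 lower in control. Of all tested genes 13.3% were higher and 14.1% lower in BCS24 under drought, and 9.98% and 9.15% in control. This grouping was made after the values were seen, and the difference between chaperones and the others was not tested. Low chaperone genes that reached the FPKM limit mainly in BCS8 drought are among them, so the counts are a description.

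Small heat shock proteins gave 3 of those lower under drought and 0 in control, with a median log2 fold change of -0.65 under drought and -0.19 in control. Of all tested genes 14.1% were lower under drought. The FPKM limit favoured low genes that are high in BCS8 drought. HORVU4Hr1G002290 reached it in 3 BCS8 drought libraries and 1 of BCS24 drought, and HORVU4Hr1G072680 in 2 and 1. The median and counts are therefore a description and not a sign of a group difference. HORVU3Hr1G020390, whose libraries are given above, was lower under drought by -2.42 ± 0.44 (edgeR adjusted p = 0.0043). HORVU3Hr1G006940 had 7.85, 12 and 8.44 FPKM in BCS24 drought, against 18.5, 22.7 and 25.0 FPKM in BCS8 drought, and 8.81, 11.5 and 9.93 FPKM in BCS24 control, against 9.03, 14.5 and 13.3 FPKM in BCS8 control. The accessions did not overlap under drought and did in control. Its log2 fold change was -1.16 ± 0.22 under drought (edgeR adjusted p = 0.00536) and -0.30 in control, which did not pass. Its drought effects differed by -0.855, BCS24 minus BCS8 (edgeR adjusted p = 0.285), so the accession difference is not shown to change with drought. The gene overlaps HORVU3Hr1G006930 on the opposite strand over 8590 bases, so its values are uncertain. HORVU4Hr1G060720 (4H, 509849858 to 509850634), chosen after its values were seen, had 2.39, 1.20 and 2.04 FPKM in BCS24 drought, against 3.73, 3.68 and 4.57 FPKM in BCS8 drought, again without overlap (-1.02 ± 0.28, edgeR adjusted p = 0.0234). The calls of HORVU3Hr1G020390 and HORVU3Hr1G006940 passed on leaving out each library in turn, and with the rRNA covariate their edgeR adjusted p-values were 0.083 and 0.0519. The call of HORVU4Hr1G060720 was lost without BCS24 drought 3 or BCS8 drought 3 (0.0503 and 0.0594 by edgeR) and with the rRNA covariate (0.0832). In a fit of only the drought libraries it was also lost, with the replicate block (0.0811) and without it (0.0953).

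Cytosolic HSP70 genes gave 1 higher and 4 lower in BCS24 under drought and 0 in control, with medians of -0.64 and 0.04. Of all tested genes 13.3% were higher and 14.1% lower under drought. HORVU4Hr1G059390 was lower under drought by -1.75 ± 0.40 (edgeR adjusted p = 0.0115), all 3 BCS24 libraries below all 3 of BCS8, and HORVU4Hr1G059260 by -1.29 ± 0.36 (edgeR adjusted p = 0.0251). HORVU4Hr1G059260 reached the FPKM limit in 3 BCS8 drought libraries and 1 BCS24 drought library, so its direction here was partly set by that limit. HORVU1Hr1G072210 reached it in 2 and 1. The cytosolic medians and counts are therefore a description and not a sign of a group difference. Without BCS24 drought 1 the adjusted p was 0.0508 for HORVU4Hr1G059390, and for HORVU4Hr1G059260 it was 0.0628 to 0.0862 without BCS24 drought 2, BCS24 drought 3 or BCS8 drought 3 and 0.0706 with the replicate block in only the drought libraries. With the rRNA covariate HORVU4Hr1G059390 had an edgeR adjusted p of 0.153. In all, its call failed in 3 of 24 alternatives and that of HORVU4Hr1G059260 in 5 of 23. HORVU6Hr1G081450 had 2.00, 3.60 and 2.51 FPKM in BCS24 drought, against 4.92, 9.85 and 6.61 FPKM in BCS8 drought, without overlap (-1.32 ± 0.32, edgeR adjusted p = 0.0157). It overlaps the HSP70 gene HORVU6Hr1G081460 on the opposite strand, whose log2 fold change was -0.03. The call of HORVU6Hr1G081450 failed in 5 of 24 alternatives. Among them were the removal of BCS24 drought 1, BCS24 drought 3 or BCS8 drought 2 (edgeR adjusted p = 0.0509 to 0.0655) and the rRNA covariate (0.166).

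HORVU5Hr1G021310 had 39.3, 50.1 and 40.9 FPKM in BCS24 drought, against 70.1, 92.1 and 52.1 FPKM in BCS8 drought, without overlap (-0.64 ± 0.19, edgeR adjusted p = 0.0302). Its neighbour HORVU5Hr1G021300, also a cytosolic HSP70, had a like value of -0.53 that did not pass, and how reads shared between such close copies were counted is not stated in the sources used here. HORVU5Hr1G032650 was the one higher in BCS24 under drought, with 210.4, 192 and 184 FPKM in BCS24 drought, against 163, 123 and 135 FPKM in BCS8 drought (0.54 ± 0.16, edgeR adjusted p = 0.0307). Both calls were lost without BCS24 drought 1 or BCS8 drought 2 (edgeR adjusted p = 0.102 to 0.108). The call of HORVU5Hr1G021310 was also lost without BCS24 drought 3 or BCS8 drought 1 (0.0836 and 0.0532 by edgeR), and that of HORVU5Hr1G032650 without BCS8 drought 3 (0.0666). With the rRNA covariate the edgeR adjusted p-values were 0.342 for HORVU5Hr1G021310 and 0.293 for HORVU5Hr1G032650, and with the replicate block in only the drought libraries 0.0651 and 0.0518. In all, the call of HORVU5Hr1G021310 failed in 7 of 24 alternatives and that of HORVU5Hr1G032650 in 6 of 24.

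Among HSP70 genes of organelles HORVU3Hr1G073230 was lower in BCS24 in both conditions. It had 25.6, 23.99 and 22.3 FPKM in BCS24 drought, against 34.3, 33.9 and 36.1 FPKM in BCS8 drought, and 24.6, 18.8 and 19.3 FPKM in BCS24 control, against 33.1, 34.2 and 31.0 FPKM in BCS8 control. The accessions overlapped in neither condition. The log2 fold change was -0.47 ± 0.11 under drought (edgeR adjusted p = 0.0123, and 0.0548 without BCS24 drought 3 and 0.0602 with the replicate block in only the drought libraries) and -0.66 ± 0.11 in control (edgeR adjusted p = 0.00287). In all, the call under drought failed in 3 of 24 alternatives.

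J-domain co-chaperones held 2 genes higher in BCS24 in both conditions. HORVU0Hr1G018300 had 123, 111 and 102 FPKM in BCS24 drought, against 80.6, 75.8 and 66.8 FPKM in BCS8 drought, and 130.4, 146 and 150.3 FPKM in BCS24 control, against 96.1, 74.9 and 89.5 FPKM in BCS8 control. BCS24 was above BCS8 without overlap each time, by 0.65 ± 0.12 under drought and 0.70 ± 0.12 in control (edgeR adjusted p = 0.00459 and 0.00367), and both calls held on leaving out each library. HORVU7Hr1G046460 was higher by 0.43 ± 0.11 and 0.57 ± 0.11 (edgeR adjusted p = 0.0182 and 0.00613). Its call under drought failed in 4 of 24 alternatives, among them the removal of BCS24 drought 1 or BCS8 drought 2 (0.0764 and 0.0669 by edgeR) and the rRNA covariate (0.0957). HORVU5Hr1G103680 went the other way under drought, with 56.3, 78.5 and 48.1 FPKM in BCS24, against 111, 159 and 80.7 FPKM in BCS8 (-0.87 ± 0.26, edgeR adjusted p = 0.0351). That call failed in 8 of 24 alternatives. Among them were the removal of BCS24 drought 1, BCS24 drought 3, BCS24 control 3 or BCS8 drought 1 or 2 (edgeR adjusted p = 0.0508 to 0.129) and the rRNA covariate (0.405).

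The chaperonin gene HORVU4Hr1G071510 (4H, 580891312 to 580918944), of the GroEL type that folds proteins in plastids and mitochondria, was read almost entirely in BCS8. It had 0 FPKM in all 3 BCS24 drought libraries, against 5.35, 5.26 and 5.43 FPKM in BCS8 drought, and 0, 0.0185 and 0.0172 FPKM in BCS24 control, against 5.98, 6.09 and 5.04 FPKM in BCS8 control. In counts this is 0 in BCS24 drought, against 2930 in BCS8 drought, and 7 in BCS24 control, against 3209 in BCS8 control. With 3 counts per library as the limit the level under drought was at least 345-fold lower in BCS24, and in control the log2 fold change was -8.70 ± 0.53 (edgeR adjusted p = 2.17e-05). Of its 3 transcripts HORVU4Hr1G071510.4 held 99.8% of the FPKM in BCS8 drought and 98.8% in BCS8 control. It reached the FPKM limit in BCS8 libraries alone, so it was a member only through the accession where it is high and its direction was partly set by that limit. The other 4 members of this type were read in both accessions, and HORVU1Hr1G069250 among them had 26.1, 25.8 and 21.2 FPKM in BCS24 drought, against 18.8, 20.7 and 20.2 FPKM in BCS8 drought (0.36 ± 0.11, edgeR adjusted p = 0.0307). That call failed in 9 of 24 alternatives. Among them were the removal of BCS24 drought 1 or 2 or BCS8 drought 1 or 2 (edgeR adjusted p = 0.0627 to 0.106), the rRNA covariate (0.354) and the replicate block in only the drought libraries (0.0915).

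HORVU4Hr1G070120 (4H, 574311649 to 574319039, minus strand), annotated with proteolysis and a serine protease inhibitor activity, was also read mostly in BCS8. It had 0.0806, 0.0734 and 0.0511 FPKM in BCS24 drought, against 1.66, 1.70 and 1.99 FPKM in BCS8 drought, and 0.133, 0.174 and 0.104 FPKM in BCS24 control, against 1.98, 2.21 and 1.74 FPKM in BCS8 control. BCS24 was below BCS8 in every library, by -4.51 ± 0.25 under drought and -3.78 ± 0.24 in control (edgeR adjusted p = 4.3e-06 and 6.82e-06). It reached the FPKM limit in the 6 BCS8 libraries alone, so its direction was partly set by that limit. The BCS24 drought values rest on 13, 13 and 10 counts. HORVU5Hr1G122490, with iron-sulfur and protein disulfide oxidoreductase terms, stood on the other side and was chosen after its values were seen. It had 1.76, 2.00 and 1.89 FPKM in BCS24 drought, against 0.357, 0.490 and 0.165 FPKM in BCS8 drought, and 1.98, 2.39 and 2.37 FPKM in BCS24 control, against 0.276, 0.249 and 0.242 FPKM in BCS8 control. It was higher in BCS24 by 2.53 ± 0.33 under drought and 3.12 ± 0.34 in control (edgeR adjusted p = 0.000576 and 0.000164). It reached the FPKM limit in the 6 BCS24 libraries alone, so its direction was also partly set by that limit.

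Annexins differed in both directions. HORVU6Hr1G074440 had 8.13, 7.27 and 5.88 FPKM in BCS24 drought, against 32.3, 34.2 and 16.7 FPKM in BCS8 drought, and 5.89, 7.38 and 9.03 FPKM in BCS24 control, against 15.4, 13.2 and 15.8 FPKM in BCS8 control. It was lower in BCS24 without overlap, by -1.90 ± 0.25 under drought (edgeR adjusted p = 0.000721) and -1.01 ± 0.25 in control (edgeR adjusted p = 0.02, and 0.0532 to 0.0726 without BCS24 control 1, BCS24 control 2 or BCS8 control 3). HORVU1Hr1G016080 had 3.18, 1.06 and 3.79 FPKM in BCS24 drought, against 2.33, 1.59 and 3.89 FPKM in BCS8 drought, and 5.75, 6.67 and 8.16 FPKM in BCS24 control, against 1.17, 1.10 and 1.13 FPKM in BCS8 control. The accessions overlapped under drought (0.10, not past the threshold) and not in control, where BCS24 was higher by 2.57 ± 0.46 (edgeR adjusted p = 0.00456). Its drought effects differed by -2.47, BCS24 minus BCS8, with an adjusted p of 0.225 by edgeR and 0.0109 by DESeq2. HORVU5Hr1G060250, an annexin of higher level, was higher in BCS24 under drought by 0.55 ± 0.11 (edgeR adjusted p = 0.00583, and 0.0838 with the rRNA covariate).

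Among enzymes, pyrroline-5-carboxylate reductase HORVU3Hr1G106720, which makes the stress solute proline, had 14.9, 18.8 and 11.5 FPKM in BCS24 drought, against 21.5, 24.9 and 26.0 FPKM in BCS8 drought, and 11.2, 11.4 and 10.3 FPKM in BCS24 control, against 21.7, 24.002 and 17.3 FPKM in BCS8 control. It was lower in BCS24 in both conditions without overlap, by -0.61 ± 0.17 and -0.95 ± 0.17 (edgeR adjusted p = 0.0233 and 0.00428). The call under drought failed in 7 of 24 alternatives. Among them were the removal of BCS24 drought 1, BCS24 drought 3 or BCS8 drought 2 or 3 (edgeR adjusted p = 0.0598 to 0.0836), the rRNA covariate (0.124) and the replicate block in only the drought libraries (0.0999). The myo-inositol-1-phosphate synthase HORVU4Hr1G071730, which begins the synthesis of inositol, had 80.6, 77.8 and 57.6 FPKM in BCS24 drought, against 51.4, 35.3 and 50.5 FPKM in BCS8 drought (0.72 ± 0.19, edgeR adjusted p = 0.0231). That call failed in 6 of 24 alternatives. Among them were the removal of BCS24 drought 1 or 2 or BCS8 drought 2 (edgeR adjusted p = 0.0528 to 0.0933), the rRNA covariate (0.151) and the replicate block in only the drought libraries (0.0799). The gene overlaps another on the opposite strand over 4696 bases. Cinnamoyl-CoA reductase HORVU5Hr1G073950, of the lignin pathway, had 68.1, 64.9 and 67.3 FPKM in BCS24 drought, against 53.3, 48.2 and 51.9 FPKM in BCS8 drought, without overlap (0.45 ± 0.09, edgeR adjusted p = 0.00727). Its deposited gene type, too, is a nontranslating coding sequence, as for the BiP gene above.

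Regulators were among those that differed too. HORVU5Hr1G050330, an ethylene-insensitive 2 gene by orthology, which passes on the ethylene signal, had 8.64, 7.90 and 7.35 FPKM in BCS24 drought, against 6.28, 5.94 and 4.84 FPKM in BCS8 drought, higher in BCS24 by 0.55 ± 0.12 (edgeR adjusted p = 0.00906). The Rab GTPase HORVU7Hr1G052840, of the family that directs vesicles, had 2.69, 2.46 and 1.71 FPKM in BCS24 drought, against 5.30, 6.48 and 5.45 FPKM in BCS8 drought, lower in BCS24 by -1.26 ± 0.25 (edgeR adjusted p = 0.00594). The accessions did not overlap in either gene.

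**Figure D5:**
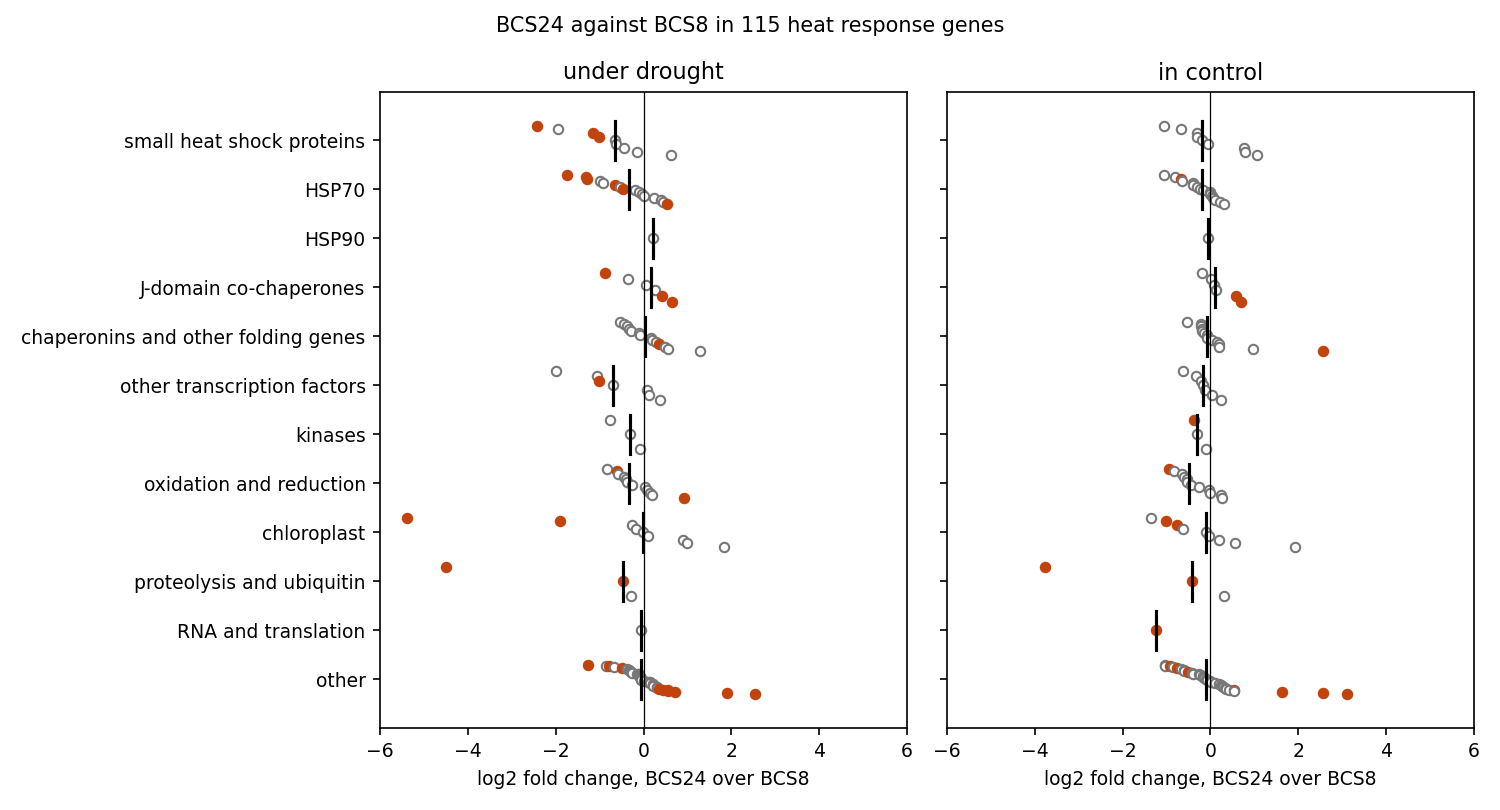
Log2 fold change of BCS24 over BCS8 (x axis) under drought (left) and in control (right) for 115 members by role, 1 point per gene, filled where the edgeR adjusted p is under 0.05, with a line at the median; the 2 members with 0 counts in a group are left out. Under drought 3 small heat shock proteins and 5 HSP70 genes are filled to the left of 0 and 1 HSP70 gene to the right, and in control 0 small heat shock proteins and 1 HSP70 gene are filled. Low genes of both roles reached the FPKM limit mainly in BCS8 drought, so these counts are a description.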

How the data were processed

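Leaf RNA was selected for poly(A) tails and made into strand-keeping libraries, per the labels' protocols. The authors deposited raw counts and FPKM values per gene and per transcript, per the file headers. StringTie 2.1.6, DESeq2 and edgeR are named in the submitters' processing notes without a role for each. Aligner, genome build and the counting of shared or antisense reads are not given in those sources, so coordinates carry no build. No genome or sequence matching these gene IDs was used.

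Counts were tested with edgeR 4.0.16 (R 4.3.3; TMM scaling, quasi-likelihood F test, all 12 libraries, 1 mean per group), with Benjamini-Hochberg adjustment over 17342 genes at 1 FPKM in 3 libraries or more and a threshold of 0.05. SE is the log2 fold change divided by the square root of F. Depth was 49553836 to 61212440 counts per library. Before use the fit was run on counts simulated from its own model, which does not measure its error rate in these libraries. Alternatives were DESeq2 1.42.0, limma 3.58.1 on log2 FPKM with a pseudocount of 1 or 0.1, other scalings and filters, fewer libraries, a replicate block and the rRNA share as a covariate. The replicate block in only the libraries compared was chosen after seeing the data.

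Genes were named by rule: every member called for drought, the 12 largest called differences in each direction between accessions without overlap and with at least 5 FPKM, the 3 most abundant of each role, and members with 0 counts in a group. Not all are described, and exceptions are marked. Members, lists and rules were chosen with earlier results of these data known. Deviations from group means correlated positively in all 3 same-numbered pairs only between accessions under drought, at 0.139, 0.246 and 0.171. Differently numbered libraries reached 0.488 elsewhere (BCS8 drought 3 with BCS8 control 2), so these values do not show that libraries were paired.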

Additional observations from a re-analysis of the deposited data

How the results depend on the processing

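Counts of members past the threshold were 1 for drought in BCS24, 3 in BCS8, 0 for their difference, 6 for the mean drought effect, 31 for BCS24 against BCS8 under drought and 19 in control. DESeq2 gave 7, 17, 5, 20, 39 and 29 in that order. The rRNA covariate gave 0 in BCS24, 0 in BCS8 and 11 under drought. A fit of only the libraries compared gave 0 in BCS8, 12 under drought and 31 in control. No FPKM filter gave 0 in BCS24, a filter at 5 FPKM gave 1 in BCS8, and limma on log2(FPKM + 1) gave 10 for the mean effect. With the replicate block the counts were 0 in BCS24 and 30 under drought, and with the block in only the libraries compared 0 in BCS8 and 19 under drought. The causes were not tested.

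Leaving out each library gave 0 to 3 members in BCS24, 0 to 4 in BCS8, 0 for their difference, 3 to 10 for the mean effect, 15 to 33 under drought and 8 to 26 in control. The lowest counts were 0 in BCS24 without BCS24 drought 1 or 2, BCS24 control 2 or 3, BCS8 drought 1 or BCS8 control 3, and 0 in BCS8 without BCS8 drought 1, BCS8 control 1 or BCS8 control 3. They were 3 for the mean effect without BCS24 control 2 or BCS8 control 1, 15 under drought without BCS24 drought 1, and 8 in control without BCS24 control 2 or BCS8 control 3. Of 51 calls of named members all kept their direction in every alternative run, and 17 stayed past the threshold in each. With 3 libraries per group, changes near the threshold were not resolved.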
